A study of Sus scrofa with 2 samples.

Results

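The metabotropic glutamate receptors and the Homer scaffold proteins were examined in the hippocampus of Rongchang piglets, at the level of transcripts. The set held 9 genes of the 25322 gene IDs in the table, namely the 6 receptor genes GRM2, GRM3, GRM4, GRM5, GRM7 and GRM8 and the 3 scaffold genes HOMER1, HOMER2 and HOMER3. They were taken by name, as the rows whose Ensembl pig gene ID is paired with one of these symbols, and each symbol had 1 row. All 9 had a mean of at least 1 FPKM (fragments per kilobase of a gene's transcript, relative to all mapped fragments), the level from which genes were counted. The receptor gene GRM6 is given beside them.

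The series holds 1 control sample and 1 sample from piglets treated with iron dextran, a complex of iron with a sugar polymer given against iron deficiency. Both are hippocampus of Rongchang piglets whose genotype is labelled as wild type (spelled "wide type"), and neither label gives a dose, a route, an age or a sex. Each label carries 2 names for its sample, without saying what they are, and the table has 1 value per gene and sample. The comparison therefore has no replicate check: there is no spread to set any difference against, no test was made, and every difference below is between these 2 samples.

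Metabotropic glutamate receptors are G protein-coupled receptors that sense glutamate and set how strongly synapses transmit. Group I receptors, such as GRM5, sit mostly on the postsynaptic side and act through Gq, phospholipase C and release of calcium from internal stores. Group II (GRM2 and GRM3) and group III (GRM4, GRM6, GRM7 and GRM8) receptors act through Gi and Go, lower cyclic AMP and mostly restrain transmitter release, and GRM3 is also found on astrocytes. Homer proteins bind a proline-rich motif in the tail of group I receptors. Their long forms join in pairs of dimers through a coiled coil and tie these receptors to Shank proteins and to the IP3 receptor.

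Of the 9 genes, GRM5 alone lay past 1.5-fold on the scale of log2(FPKM + 1), where it was higher in the iron dextran sample. No member was 1.5-fold lower. Over all 12557 genes at or over 1 FPKM on average, 2.47% were at least 1.5-fold higher and 1.47% at least 1.5-fold lower. The 9 genes split into 4 above 0 and 5 below 0, and 49.0% of all genes were above 0. Their median difference was −0.0059, beside −0.0046 over all genes. Of the 9, 5 differed by at most 0.1 on this log2 scale. The pseudocount of 1 in this scale makes the differences of low genes smaller than their plain ratios.

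GRM5 (ENSSSCG00000029865), the postsynaptic group I receptor that raises calcium and takes part in synaptic plasticity, had 3.09 FPKM in control and 6.14 FPKM after iron dextran. The iron dextran value was thus 1.99 times the control value, the largest ratio among the 9 genes. Its difference on the log2(FPKM + 1) scale was 0.80, larger in size than that of 98.1% of all genes. Among the 4818 genes with a mean of 2 to 10 FPKM, a range chosen after the values had been seen, 3.38% were at least 1.5-fold higher and 1.87% at least 1.5-fold lower, and 1.47% had a difference as high as that of GRM5 or higher. The difference of GRM5 lay between 0.75 and 0.99 over the alternative pseudocounts and scalings. With a mean of 4.62 FPKM, the gene falls out when a mean of at least 5 is required.

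GRM3 (ENSSSCG00000015395), a group II receptor of neurons and astrocytes that also responds to the dipeptide NAAG, was the most abundant of the 9 genes in both samples. It had 60.9 FPKM in control and 61.7 FPKM after iron dextran, a difference of 0.02 on the log2(FPKM + 1) scale. Its mean was above that of 87.7% of all genes. GRM2 (ENSSSCG00000011423), the group II receptor found mainly on axons, was the least abundant, with 2.15 FPKM in control and 1.97 FPKM after iron dextran and a difference of −0.08. GRM3 had 28.3 times the FPKM of GRM2 in control and 31.3 times in iron dextran.

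**Figure D1:**
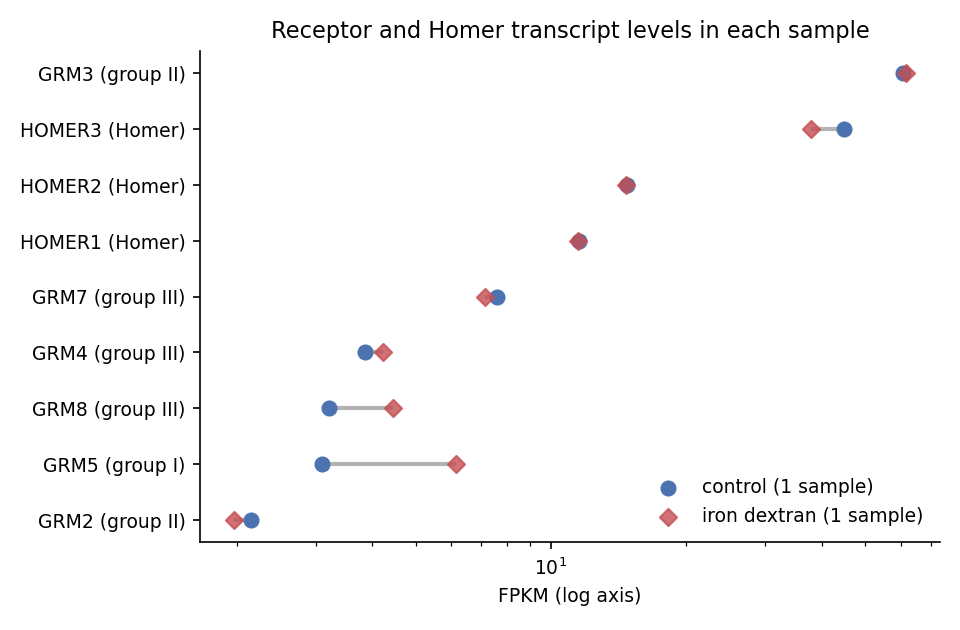
Level of each receptor and Homer gene in the control sample (circle) and the iron dextran sample (diamond), as FPKM on a log axis. GRM5 has the widest gap of the 9 genes, from 3.09 to 6.14 FPKM, GRM3 leads in both samples at 60.9 and 61.7 FPKM, and GRM6, listed at 0, is not drawn.

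The group III receptors, presynaptic brakes on transmitter release, had low to middle levels. GRM7 (ENSSSCG00000023891), the group III receptor placed at the release site itself, had 7.57 FPKM in control and 7.15 FPKM after iron dextran, a difference of −0.07. GRM4 (ENSSSCG00000001523) had 3.87 FPKM in control and 4.24 FPKM after iron dextran, a difference of 0.10. GRM8 (ENSSSCG00000022865) had 3.21 FPKM in control and 4.45 FPKM after iron dextran, a ratio of 1.39 and a difference of 0.37. GRM8 was the second most different of the 9 genes and did not reach 1.5-fold. Among genes with a mean of 2 to 10 FPKM, 9.55% had a difference as high as that of GRM8 or higher. GRM6 (ENSSSCG00000014027), known from the retina, was listed at 0 in both samples, and a 0 in such a table can also be a failed estimate.

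The Homer genes were more abundant than every receptor other than GRM3. HOMER1 (ENSSSCG00000014113) encodes long scaffold forms and a short form made upon neuronal activity, which lacks the coiled coil and loosens the scaffold. It had 11.53 FPKM in control and 11.48 FPKM after iron dextran, a difference of −0.0059. One value per gene does not separate the long forms from the short one. HOMER2 (ENSSSCG00000001804), a long scaffold form, had 14.75 FPKM in control and 14.67 FPKM after iron dextran, a difference of −0.0069. HOMER1 and HOMER2 each differed by less than 1% between the samples.

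HOMER3 (ENSSSCG00000013919), the Homer known for its high level in cerebellar Purkinje cells, was the most abundant of the 3, with 44.8 FPKM in control and 37.9 FPKM after iron dextran. Its difference of −0.23 was the lowest of the 9 genes, and 74.3% of all genes had a smaller one in size. Of the cerebellar markers, the granule cell subunit GABRA6 was listed at 0 in both samples, ZIC1 had 3.83 FPKM in control and 2.66 FPKM after iron dextran, and the other 2 had no row paired with their symbol. Of the marker lists of other regions, the 3 measured genes of thalamus and habenula had a median difference of −0.20 and the 2 of striatum −0.36. The 4 measured genes of cortex had a median of 0.20. Whether tissue outside the hippocampus contributed to the HOMER3 value was not tested.

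**Figure D2:**
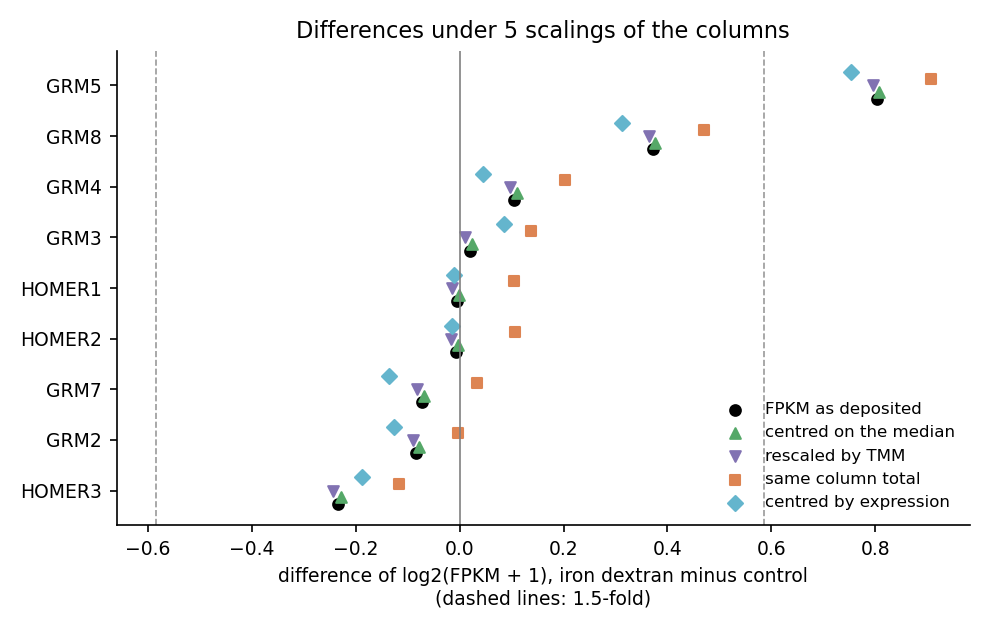
Iron dextran minus control on the log2(FPKM + 1) scale, for the 9 genes with the columns as deposited and under 4 other scalings, with dashed lines at 1.5-fold. GRM5 lies past the upper line under all 5 scalings, and GRM7, HOMER1 and HOMER2 lie above 0 with the same column total and below 0 as deposited.

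Scaling moved the members near 0 across it. The column totals were 924070 FPKM for control and 850165 FPKM for iron dextran. Scaling the columns to the same total put the median of all genes at 0.10. It also placed 7 of the 9 genes above 0, beside 72.1% of all genes, with GRM7 at 0.03, HOMER1 at 0.11 and HOMER2 at 0.11. GRM2 stayed below 0 at −0.0021 and HOMER3 at −0.12. No scaling brought a further member to 1.5-fold: GRM8 reached 0.47 with the same total.

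Ratios between genes within 1 sample do not change when a column is multiplied by a constant, as for the same total or TMM. GRM5 had 0.0508 of the FPKM of GRM3 in control and 0.0995 in iron dextran. Against its scaffold HOMER1, GRM5 had 0.268 of the FPKM in control and 0.535 of it after iron dextran. Against HOMER3 it had 0.0690 in control and 0.162 in iron dextran. The fold of these ratios between the samples was 1.96 for GRM3, 1.99 for HOMER1 and 2.34 for HOMER3. Within the Homer genes, the ratio of HOMER2 to HOMER1 was 1.28 in both samples, and that of HOMER3 to HOMER1 was 3.89 in control and 3.31 in iron dextran.

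The order of levels was the same for the top 5 genes in both samples: GRM3, HOMER3, HOMER2, HOMER1 and GRM7. GRM2 was last of the 9 in both. Among the 3 genes in between, the control order was GRM4, GRM8 and GRM5, and the iron dextran order was GRM5, GRM8 and GRM4. In control these 3 lay between 3.09 and 3.87 FPKM, and with 1 sample per group no spread exists to tell such neighbours apart. FPKM is per length, so levels can be set side by side, but they depend on how complete each gene model was in the authors' annotation.

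Summed over the 7 receptor genes given here, the values came to 80.7 FPKM in control and 85.6 FPKM after iron dextran. GRM3 made up 75.4% of this sum in control and 72.04% in iron dextran. GRM5 made up 3.83% in control and 7.17% in iron dextran. Group III held 18.1% in control and 18.5% in iron dextran, and group II held 78.0% and 74.3%. With GRM3 set aside, the share of GRM5 was 15.5% in control and 25.6% in iron dextran, and that of GRM7 was 38.1% in control and 29.9% in iron dextran. The 3 Homer genes summed to 71.1 FPKM in control and 64.1 FPKM after iron dextran, of which HOMER3 held 63.0% and 59.2%. These are shares of transcripts per length in a bulk tissue, where fewer cells of a type and less RNA per cell cannot be told apart.

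**Figure D3:**
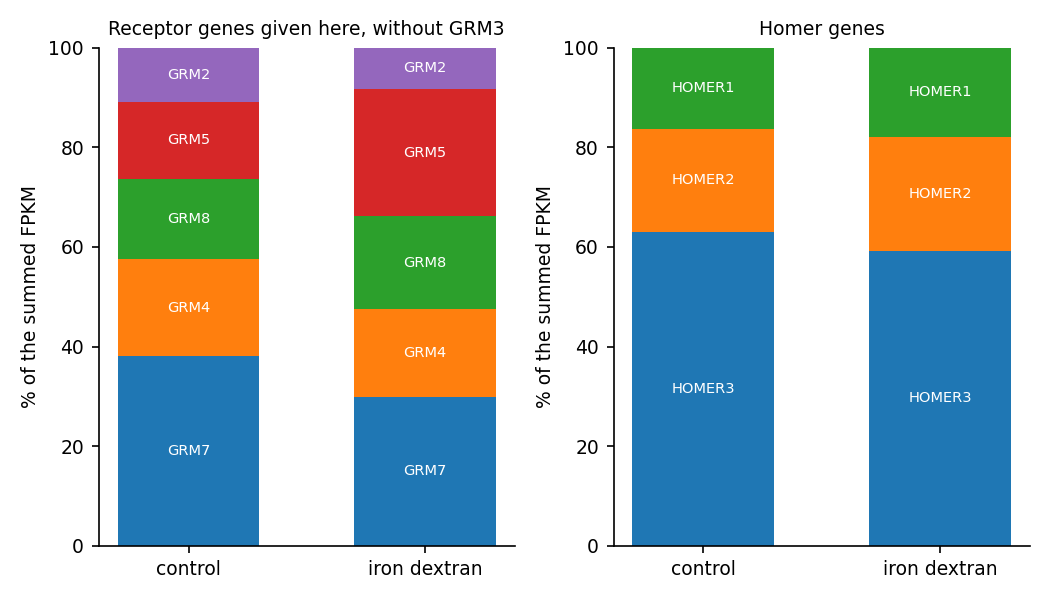
Share of each gene in the summed FPKM of the receptor genes given here other than GRM3 (left) and of the Homer genes (right), as stacked bars from 0 to 100% with 1 sample per bar. The GRM5 segment is 15.5% in control and 25.6% after iron dextran. The Homer shares differ less, with HOMER3 at 63.0% and 59.2%.

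**Figure D4:**
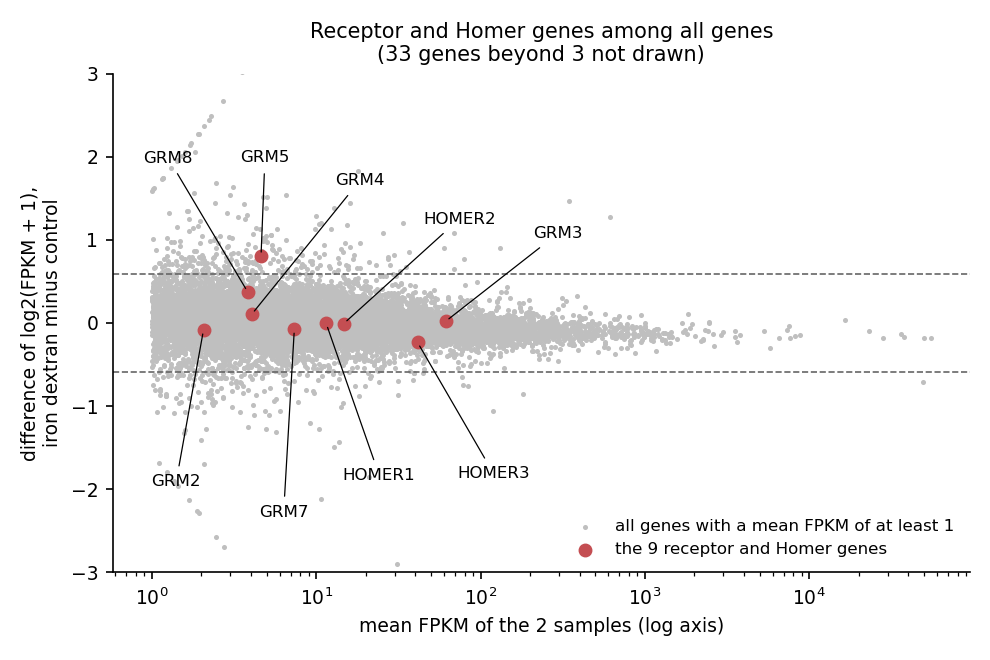
Iron dextran minus control on the log2(FPKM + 1) scale, against the mean FPKM on a log axis, for the 12557 genes with a mean of at least 1 (grey; 33 beyond 3 not drawn) and the 9 receptor and Homer genes (red), with dashed lines at 1.5-fold. GRM5 is the 1 red point outside the lines, at a level where the grey points also spread more widely than at high FPKM.

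Genes that act with these receptors were taken from 5 lists, which together held 91 symbols. Of these, 68 were paired with a row and 62 had a mean of at least 1 FPKM. Of the 62, a single gene, CAMK2A, lay past 1.5-fold on the higher side and no gene on the lower side, beside the 2.47% and 1.47% of all genes. In all 38 were above 0 and 24 below, and 49.0% of all genes were above 0. The median of the 62 was 0.05, beside −0.0046 over all genes.

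The signalling genes of group I, from Gq to the IP3 receptor, had 12 measured members, of which 7 were above 0, 5 were below and none was past 1.5-fold. Their median was 0.07, and it was −0.09 over the members with a mean FPKM of at least 5. PLCB1, the phospholipase C that GRM5 acts through in the forebrain, had 4.49 FPKM in the control and 5.81 in the iron dextran sample. PRKCA, a protein kinase C, had 3.17 and 3.91 FPKM, and the IP3 receptor gene ITPR1 had 1.26 and 1.59. PLCB3, another phospholipase C, was listed lower in iron dextran, with 7.20 and 6.11 FPKM. The symbols GNAQ and PRKCB had no row paired with them.

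The Gi and Go signalling genes of groups II and III had 16 measured members, 8 above 0 and 8 below, with none past 1.5-fold. Their median of −0.0078 turned to 0.10 with the same column total and to 0.02 when centred by expression. ADCY9, an adenylyl cyclase, had 7.07 FPKM in the control and 5.15 in the iron dextran sample. KCNJ6, a potassium channel subunit opened by G proteins, had 1.37 and 2.02 FPKM. GNB2, a G protein beta subunit, had 3.17 and 2.45 FPKM, and RGS7, which shortens Go signals, had 19.8 and 18.3.

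Homer partners and other proteins of the postsynaptic density had 10 measured members, of which 8 were above 0 and none was past 1.5-fold, with a median of 0.12. TRPC1, a cation channel that binds Homer, had 5.64 FPKM in the control and 8.95 in the iron dextran sample, a difference of 0.58 that lay just under 1.5-fold. With a pseudocount of 0.1, with the same column total or with centring on the median, TRPC1 was past 1.5-fold. The channel gene TRPC4 had 2.16 and 2.91 FPKM, and the scaffold gene DLGAP2 had 1.08 and 1.39. The symbols SHANK1, SHANK2 and SHANK3, the main Homer partners in this structure, had no row paired with them and were not analysed here.

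**Figure D5:**
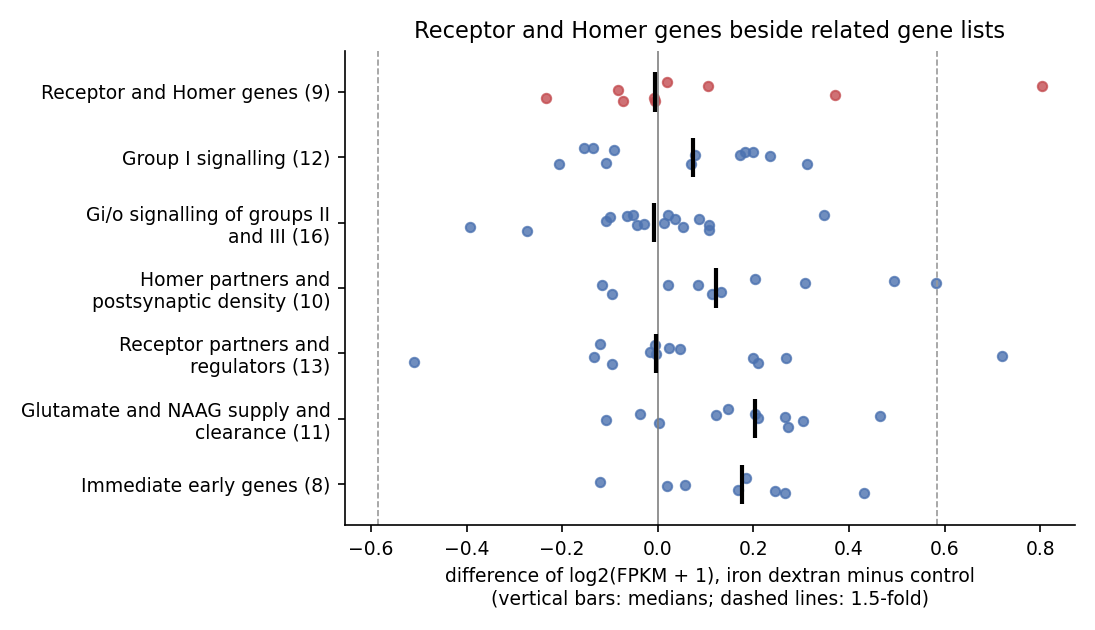
Iron dextran minus control on the log2(FPKM + 1) scale, for each receptor and Homer gene (red) and each gene of 6 related lists at or over 1 FPKM on average (blue), with the number of genes in brackets, medians as bars and dashed lines at 1.5-fold. GRM5 and CAMK2A are the 2 points outside the lines, and TRPC1 lies just inside the upper one.

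Partners and regulators of the receptors had 13 measured members, with 6 above 0 and 7 below and a median of −0.0038. CAMK2A, the calcium-dependent kinase of synaptic plasticity, had 1.995 FPKM in the control and 3.93 in the iron dextran sample, a difference of 0.72. With a mean of 2.96 FPKM, CAMK2A falls out when a mean of at least 5 is required, and it did not reach a fold of 2. The adenosine receptor ADORA2A, which acts together with GRM5 in the striatum, had 3.69 and 2.29 FPKM, a difference of −0.51, and lay past 1.5-fold on the lower side with a pseudocount of 0.1. GRIP1, a scaffold of glutamate receptors, had 2.51 and 3.22 FPKM. FMR1, which restrains the translation that group I receptors drive, had 14.9 and 17.4 FPKM. The median of this list turned above 0, to at most 0.12, with the same column total, with centring by expression and with centring on the median.

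Genes that supply and clear glutamate and NAAG had 11 measured members, of which 9 were above 0 and none was past 1.5-fold, with a median of 0.20. SLC1A3, the astrocytic glutamate transporter GLAST, had 116 FPKM in the control and 143 in the iron dextran sample. SLC1A2, the transporter GLT-1, had 12.8 and 15.7 FPKM. SLC7A11, the cystine and glutamate exchanger, had 0.702 and 1.35 FPKM and lay past 1.5-fold with a pseudocount of 0.1. Immediate early genes of neuronal activity, set beside HOMER1, had 7 of 8 measured members above 0 and none past 1.5-fold. Their median was 0.18. Over all genes, 49.0% were above 0, 2.47% were at least 1.5-fold higher and 1.47% at least 1.5-fold lower. EGR3 had 1.68 and 2.62 FPKM, past 1.5-fold with a pseudocount of 0.1, and FOS had 7.21 and 8.87, while HOMER1 as a whole had a difference of −0.0059.

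Cell type markers gave these values beside GRM5. The 7 measured neuronal markers had a median difference of −0.03 and summed to 3718 FPKM in control and 3581 FPKM after iron dextran. The 7 astrocyte markers, 4 above 0 and 3 below, had a median of 0.16 and summed to 1628 and 1564. Most of these sums was GFAP, with 1275 FPKM in control and 1145 FPKM after iron dextran. The 6 microglial markers were all above 0, and 1 of them was at least 1.5-fold higher. Their median was 0.40, with sums of 71.9 and 96.9 FPKM. The 3 blood markers were all at least 1.5-fold higher, with sums of 189 and 519 FPKM. Over all genes, 49.0% were above 0 and 2.47% were at least 1.5-fold higher. The 7 oligodendrocyte markers had a median of −0.21, the 6 of oligodendrocyte precursors −0.13, the 3 of endothelium −0.17 and the 8 of interneurons 0.12. Of the subfields, the 3 measured dentate granule cell markers had a median of 0.48, the 3 of CA1 −0.03 and the 4 of CA3 and CA2 −0.15. With the filter left aside, the 6 dentate markers with a row had a median of 0.04, and 1 of them was listed at 0 in both samples. The part of blood, microglia or the subfield makeup of the dissected tissue in the GRM5 difference was not tested.

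The 3 genes with a symbol whose pair of values came closest to that of GRM5, by Euclidean distance of log2(FPKM + 1) over the 2 samples, were CNR1, RIGI and ALAS2. CNR1 had 3.04 and 6.36 FPKM, at a distance of 0.05. RIGI had 3.22 and 5.81 FPKM. ALAS2, which is also among the blood markers above, had 3.29 and 5.78 FPKM. With 2 samples, such likeness says only that the levels and the ratio were close.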

How the data were processed

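RNA from the hippocampus of Rongchang piglets was sequenced in 1 control and 1 iron dextran sample. The values are FPKM, deposited by the authors as 1 column per sample; columns were matched to samples by the letter they share with the sample title. The submitters' processing notes name cutadapt 1.2.1, TopHat and the pig builds Sscrofa10.2 and susScr3. Which program computed FPKM, from which annotation and with which strand setting, is not given in the sources used here. Gene symbols came from a table of Ensembl IDs, which matched 11804 of 25322 IDs. No coordinates or sequences are given.

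Depth was examined on 690 genes above 0 in both samples and under 0.1 FPKM in control. Of their ratios, 194 lay within 0.05 log2 units of a common value and 125 within 0.05 of 2 times it. Read as fragments, the iron dextran sample was 1.06 times as deep. The ratios were spread around these values, so reads were not recovered and the absolute depth is unknown.

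Differences of log2(FPKM + 1) were computed with Python 3.11.15 and pandas 2.3.3, over genes averaging at least 1 FPKM, and a gene counted from 1.5-fold. The calculation was tested on simulated data, with changes larger than that of GRM5 and only in genes of higher FPKM than GRM5. With 1 sample per group, no test was made. The members and lists were chosen with earlier results of these data known. Named are all 9 members, GRM6 and the 3 genes nearest to GRM5. In each list, the genes past 1.5-fold and the largest differences up to 4 genes are named. GABRA6, ZIC1 and GFAP, and list symbols without a paired row, were chosen after their values were seen. A few genes named by the rule are left out. Alternatives were pseudocounts of 0.1 and 0.01, no filter or a mean FPKM of at least 5, folds of 1.25 and 2, and 4 scalings: to the same column total, to a median difference of 0, to a median of 0 within 20 bins of mean expression, and by TMM (the mean of log ratios after trimming 30% of ratios and 5% of levels at each end).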

Additional observations from a re-analysis of the deposited data

How the results depend on the processing

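The count of 1 member at least 1.5-fold higher was 0 with a mean FPKM of at least 5, which leaves GRM5 out (1.35% of all genes were higher there), and 0 with a fold of 2 (0.741%). It was 2, GRM5 and GRM8, with the lowest fold tried, where 8.81% of all genes were higher. The count of members at least 1.5-fold lower was 0 under all 10 alternatives. The 4 members above 0 became 1 with a mean FPKM of at least 5, where 5 members remain out of 9 and 43.6% of all genes were above 0, and 7 with the columns scaled to the same total (72.1%). The median of the members, −0.0059, was 0.11 with the same total, where that of all genes was 0.10. GRM5 kept its direction and stayed past 1.5-fold under the 7 alternatives of pseudocount, scaling and no filter that gave it a value. Among single genes, GRM7, HOMER1 and HOMER2 changed sign, each under 1 alternative of 8, the same total. With 1 sample per group no sample could be left out. No paired analysis was possible because each group is 1 sample and no test was made. The depth is unknown, so no counting interval can be given for the low levels of GRM2, GRM4, GRM5 and GRM8.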
